A study of Mus musculus with 8 samples.

Results

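Arginine metabolism of tumor myeloid cells was followed through 7 genes, Arg1, Arg2, Nos2, Acod1, Slc7a2, Ass1 and Odc1, picked by symbol among the 32285 genes of the count matrices. The data were single-cell RNA-seq of CD45+ cells sorted from orthotopic mammary tumors on day 18 in 8 female C57BL/6 mice. E0771 is a mouse triple-negative mammary tumor line, and 2 mice carried it in its parental, treatment-naive form. Another 3 mice carried E0771-Res1 and 3 carried E0771-Res2, each of which is 1 line grown out of E0771 tumors that had relapsed after paclitaxel and anti-PD-1. A line effect therefore cannot be told apart from an effect of resistance, since each resistant group holds mice of 1 line.

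Arginine enters macrophages mainly through cationic amino acid transporters, of which Slc7a2 encodes CAT2. Arg1 (cytosolic) and Arg2 (mitochondrial) encode arginases, which split arginine into ornithine and urea, and Odc1 encodes ornithine decarboxylase, which turns ornithine into the polyamine putrescine. Nos2 encodes the inducible nitric oxide synthase, which turns arginine into nitric oxide and citrulline. Ass1, argininosuccinate synthase, starts the return of citrulline to arginine. Acod1 makes itaconate from cis-aconitate and belongs to the response of macrophages to inflammatory stimuli. Arg1 and Nos2 compete for one substrate and are often used as opposite markers of macrophage states, which is why their presence in the same cells was examined.

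Of 11430 deposited cells, 10605 passed the filter of 500 to 6000 detected genes and under 10% mitochondrial UMIs (unique molecular identifiers, the counted RNA molecules). The matrices held 5036667 to 18894504 UMIs per mouse. Myeloid cells, 7765 in all, were gated on at least 10 UMIs of 5 myeloid genes and at most 2 of lymphoid genes, with dendritic cells set apart, and were split by C1qa, a complement gene of mature tumor macrophages. The C1qa-high gate (at least 10 UMIs) held 2261 cells, the C1qa-mid gate (2 to 9) 1648 and the C1qa-low gate (at most 1) 3856. Summed monocyte markers ranged over the 8 mice from 8252 to 12507 CPM (UMIs scaled to the same library total in every summed profile) in C1qa-low and from 1614 to 4212 CPM in C1qa-high cells. Summed macrophage markers ran the other way, at 2677 to 4150 and 17359 to 24007 CPM. This list holds C1qb and C1qc, which encode chains of the same complement protein as C1qa, so the gate itself favored this direction. E0771-Res2 cells were shallower, with a median of 8245 UMIs in C1qa-high cells against 10162 in E0771 and 11102 in E0771-Res1. No cell barcode was shared between mice.

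The members differed widely in level. Over the 8 mice, Ass1 averaged 225.9 CPM of the summed counts of all myeloid cells (SD 66.2), Odc1 102 (SD 19.6) and Acod1 79.4 (SD 7.501). Arg1 averaged 24.8 CPM with an SD nearly as large (22.5) and Arg2 19.9 (SD 5.97). Nos2 was at 3.40 CPM (SD 1.43) and Slc7a2 at 2.15 CPM (SD 0.836). The assay counts 1 end of each transcript, so these levels were not divided by gene length, and they rank genes by molecules counted. Ass1 had a UMI in 51.9% of myeloid cells and Odc1 in 37.4%, whereas Nos2 had one in 1.42% and Slc7a2 in 1.07%. T cells give a guide to the level of free RNA. Their gate required under 10 UMIs of the myeloid genes, which left out cells with much myeloid RNA. The T cell shares may therefore understate what free RNA could reach. Arg1 had a UMI in 1 of 580 T cells (0.172%), and Nos2 and Slc7a2 in none, which allows a share of up to 0.517%. Ass1 had a UMI in 29.8% and Odc1 in 76.0% of T cells, so T cells cannot serve as cells that lack these genes. Acod1 was seen in 3.79% of T cells, a gate with a median of 6180.5 UMIs per cell against 6842 in C1qa-low cells. These limits cover counting error only.

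**Figure D1:**
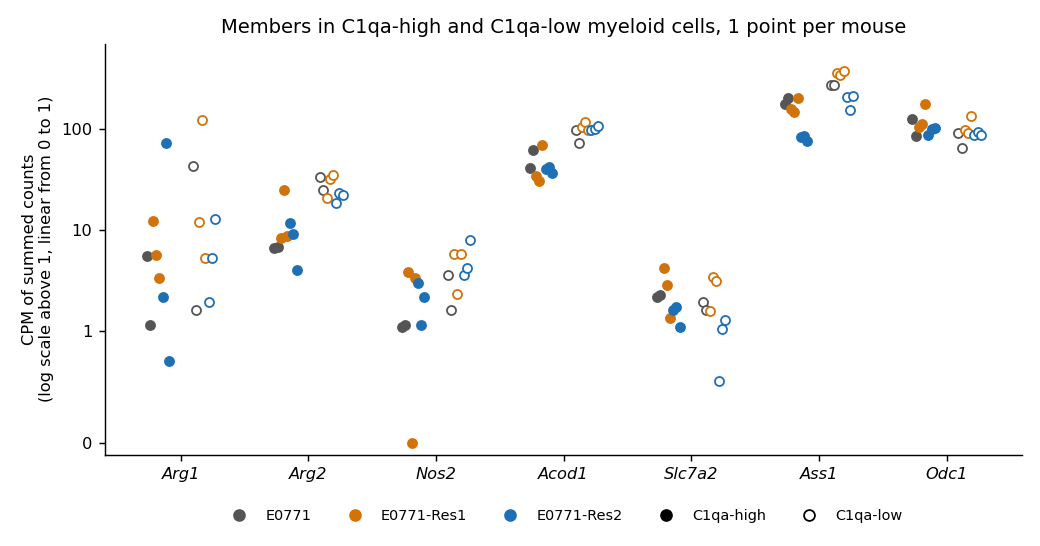
CPM of the 7 members in summed counts of C1qa-high (filled) and C1qa-low (open) myeloid cells, on an axis that is logarithmic above 1 and linear below; each point is a mouse, colored by tumor line. The Acod1 points of the gates do not overlap (30.6 to 70.2 against 72.9 to 119 CPM), and the 3 filled Ass1 points of E0771-Res2 sit at 76.8 to 86.5 CPM.

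Ass1, Acod1 and Arg2 were lower in C1qa-high than in C1qa-low cells, by 2.22-fold, 2.59-fold and 2.93-fold. Odc1 differed by little, and Arg1 varied too much between mice for a call. Nos2 and Slc7a2 had too few counts to enter the test. Of the 5 members tested, 3 were called lower and 0 higher, in a comparison where 55.7% of the 8909 genes tested were called in either direction, so a call by itself does not set the members apart. Their median log2 fold change was -1.15, against 0.01 over all genes tested.

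Acod1 was the only member whose CPM ranges in the gates did not overlap, though by little (70.2 against 72.9 CPM). Its level in C1qa-low cells was 97.5 and 72.9 CPM in the E0771 mice, 105, 119 and 98.9 CPM in E0771-Res1, and 98.9, 102 and 107 CPM in E0771-Res2. In C1qa-high cells it was 41.4 and 63.1 CPM, then 34.4, 30.6 and 70.2 CPM, then 40.0, 42.7 and 36.6 CPM, in the same order. No mouse's C1qa-high value reached the lowest C1qa-low value, and the log2 fold change was -1.37 (SE 0.12, n = 8 mice, edgeR adjusted p = 1.8e-08). C1qa-mid cells, at 97.4 CPM (SD 14.7), lay at the C1qa-low level of 100.1 CPM (SD 12.9) and above the C1qa-high level of 44.9 CPM (SD 14.1). Ranges over mice leave out the pairing of gates within a mouse, and in the paired fit Ass1 had a smaller edgeR adjusted p (1.63e-09). With cells thinned to equal depth, as described below, the Acod1-positive share was higher in C1qa-high cells of 1 of 8 mice. This was E0771-Res1 replicate 3 (17.8% against 16.4%), whereas the shares of Ass1 and Arg2 were higher there in 0 of 8 mice.

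Arg2 was the only arginase with a steady level. It lay between 18.6 and 35.6 CPM in C1qa-low cells and between 4.03 and 11.7 CPM in C1qa-high cells of 7 mice, with 24.9 CPM in E0771-Res1 replicate 2. The C1qa-high value was the lower one in all 8 mice, and the log2 fold change was -1.55 (SE 0.18, edgeR adjusted p = 6.26e-07). Arg2 UMIs were spread thinly, with 932 UMIs in 655 myeloid cells and at most 7 in a cell.

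Ass1 was lower in C1qa-high cells of all 8 mice, with a log2 fold change of -1.15 (SE 0.09, edgeR adjusted p = 1.63e-09). Within lines the log2 fold change was -0.67 in E0771 (SE 0.12), -1.24 in E0771-Res1 (SE 0.10) and -1.37 in E0771-Res2 (SE 0.10). The Ass1 values of each mouse are given with the lines. Odc1 averaged 112.5 CPM (SD 29.7) in C1qa-high and 93.9 CPM (SD 19.5) in C1qa-low cells. Odc1 CPM was higher in C1qa-high cells of 8 of 8 mice. The fitted log2 fold change was 0.10 (SE 0.06, edgeR adjusted p = 0.193), which did not pass the threshold of 0.05. CPM used plain library totals, whereas the fit added a scaling factor per profile (TMM), so counts of mice by CPM are on another scale. For Nos2, CPM was lower in C1qa-high cells of 8 of 8 mice (0 to 3.82 against 1.63 to 8.04 CPM), from 48 and 103 UMIs in all. A fit with no filter on low counts gave Nos2 a log2 fold change of -1.16 (SE 0.28, edgeR adjusted p = 0.00021). In that fit the standard error of Arg1 was 0.14, against 0.58 with the filter, at a log2 fold change of -0.78 in both. The fit with no filter may therefore understate the spread between mice, and its p values are not read as calls here. Slc7a2 had 46 and 37 UMIs, and the same fit gave 0.30 (SE 0.39, edgeR adjusted p = 0.638).

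C1qa-high cells held more UMIs than C1qa-low cells, so shares of positive cells were compared after every cell had been thinned to 3500 UMIs. Cells under that depth were left out, 52 of 2261 in the C1qa-high and 486 of 3856 in the C1qa-low gate. The thinned share of Ass1-positive cells averaged 28.2% in C1qa-high and 43.1% in C1qa-low cells, a mean difference of -14.9 percentage points (SD 6.06) seen in all 8 mice. An exact two-sided sign-flip permutation test gave p = 0.00781, the smallest it can give, or 0.0273 adjusted over 7 members. Arg2 differed by -3.53 points (SD 1.76, 8 of 8 mice, exact permutation test, adjusted p = 0.0273). Acod1 differed by -8.74 points (SD 4.78, exact permutation test, adjusted p = 0.0365), lower in 7 of 8 mice. Before thinning, these differences were -7.36, -4.14 and -7.63 points. Odc1 went the other way, with 25.5% of C1qa-high and 19.9% of C1qa-low cells positive, higher in 7 of 8 mice (exact permutation test, adjusted p = 0.041), and 17.97 points apart before thinning. These calls were near the threshold. With the cells of the 5% highest doublet scores left out, the adjusted exact permutation p of Ass1, Arg2, Acod1 and Odc1 was 0.0547 each, with the directions kept. Thinned to 1750 UMIs, it was 0.0547 for Ass1, Arg2 and Acod1 and 0.0766 for Odc1 (exact permutation test). In both settings Ass1 was lower in C1qa-high cells of all 8 mice, with an unadjusted exact permutation p of 0.00781, the smallest possible. No other member reached that p there, so the loss of the Ass1 call says little. The thinned shares of Arg1 (0.924% and 0.779%), Nos2 (0.640% and 0.981%) and Slc7a2 (0.493% and 0.631%) gave adjusted exact permutation p values of 0.773, 0.197 and 0.647.

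Other genes of these pathways were listed with earlier results of the data known, and most that were tested were called between the gates, as were 55.7% of all genes tested. In a list of arginine uptake, urea cycle and nitric oxide genes, 12 of 20 were tested, 7 were called higher and 4 lower in C1qa-high cells, with a median log2 fold change of 0.30. Gatm, which makes the creatine precursor guanidinoacetate from arginine, was 2.28 higher on the log2 scale (SE 0.17), and Gamt, the next enzyme to creatine, 0.75 higher (SE 0.13). Gch1, which makes the nitric oxide synthase cofactor tetrahydrobiopterin, fell by 1.08 (SE 0.06), while Qdpr and Spr, also of biopterin metabolism, rose by 0.74 (SE 0.11) and 0.47 (SE 0.11). Asl, which follows Ass1 in the return of citrulline to arginine, fell by 0.22 (SE 0.06). The uptake gene Slc7a1 fell by 0.38 (SE 0.13) and Slc7a7 rose by 0.37 (SE 0.07).

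The next lists are also read against the 55.7% of all genes called between the gates, and no list was tested as a set. Of 18 ornithine, proline and polyamine genes, 15 were tested, 4 were called higher and 7 lower, with a median of -0.22. Smox, spermine oxidase, fell by 1.39 (SE 0.07) and Sat1, which acetylates polyamines, by 0.56 (SE 0.05), whereas Paox, which oxidizes acetylated polyamines, rose by 1.30 (SE 0.10) and the spermidine synthase Srm by 0.79 (SE 0.10). Of 12 itaconate and citrate genes, all were tested, 6 were called higher and 2 lower, with a median of 0.18. Aco1, a cytosolic aconitase, rose by 0.64 (SE 0.14), and Nfe2l2, which encodes NRF2, fell by 0.29 (SE 0.04). Of 20 genes known to regulate Arg1, Nos2 or Acod1, all were tested, 3 were called higher (Pparg, Tlr4 and Il4ra) and 13 lower, with a median of -0.35. The falls included Cebpb, a factor of inflammatory and arginase genes, at -1.35 (SE 0.04), the GM-CSF receptor chain Csf2rb at -0.91 (SE 0.06), Hif1a at -0.86 (SE 0.07) and Nfkb1 at -0.83 (SE 0.05).

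Between tumor lines, Ass1 was the member called in both gates. In C1qa-high cells it was at 176 and 202 CPM in the E0771 mice, at 160, 147 and 205 CPM in E0771-Res1, and at 83.8, 86.5 and 76.8 CPM in E0771-Res2. All 3 E0771-Res2 mice lay below every other mouse. The C1qa-low cells gave 276 and 275 CPM in E0771, 358, 348 and 377 CPM in E0771-Res1, and 207, 157 and 212 CPM in E0771-Res2, again with no overlap of E0771-Res2 and the rest.

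In C1qa-high cells, Ass1 in E0771-Res2 was 43.4% of its E0771 level (log2 fold change -1.21, SE 0.15, edgeR adjusted p = 0.000955) and 48.6% of its E0771-Res1 level (-1.04, SE 0.13, edgeR adjusted p = 0.000651). By p-value it was the eighth gene of 9045 in the first of these comparisons. In C1qa-low cells the log2 fold changes were -0.53 against E0771 (SE 0.12, edgeR adjusted p = 0.0145) and -0.93 against E0771-Res1 (SE 0.11, edgeR adjusted p = 0.000156). The call against E0771 in C1qa-low cells was lost when either E0771 mouse was left out, with adjusted p of 0.146 and 0.124 by edgeR and log2 fold changes of -0.54 and -0.53. E0771-Res1 did not pass against E0771 in either gate (-0.16, SE 0.14, edgeR adjusted p = 0.714, and 0.40, SE 0.12, edgeR adjusted p = 0.239).

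Ass1 was the 1 member called of 5 tested in each E0771-Res2 comparison in C1qa-high cells and of 6 in C1qa-low cells. The shares of all genes called were 2.02% and 5.49% against E0771, and 3.25% and 4.74% against E0771-Res1, in C1qa-high and C1qa-low cells. Between E0771-Res1 and E0771, 0.265% and 0.0842% of genes were called, and 0 members. At an unadjusted p under 0.05 by edgeR, Acod1, Ass1 and Odc1 passed there in C1qa-low cells, with log2 fold changes of 0.32, 0.40 and 0.44, and 0 members in C1qa-high cells. Arg2 in E0771-Res2 was -0.51 against E0771 in C1qa-low cells (SE 0.23, edgeR adjusted p = 0.227), and Acod1 0.23 (SE 0.13, edgeR adjusted p = 0.353).

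The lower Ass1 of E0771-Res2 was found in C1qa-mid cells too, at 192, 164 and 177 CPM against 291 to 362 CPM in the other 5 mice. In dendritic cells the lines overlapped, at 268 CPM (SD 54.1) in E0771, 378 (SD 82.5) in E0771-Res1 and 279 (SD 41.1) in E0771-Res2, and in T cells E0771-Res2, at 102 CPM (SD 26.3), overlapped with E0771 at 97.6 (SD 0.289) and E0771-Res1 at 118 (SD 7.57), though these last did not overlap with each other. These gates were not tested, and dendritic and T cells numbered only 399 and 580. Thinning to 3500 UMIs left the lines apart: 18.4% of C1qa-high cells were Ass1-positive in E0771-Res2 (SD 1.25, n = 3), 34.5% in E0771 (SD 0.409, n = 2) and 33.8% in E0771-Res1 (SD 4.73, n = 3). E0771-Res2 also differed in summed marker groups. Monocyte markers were at 1773 to 2336 CPM in its C1qa-high cells, below E0771 (3349 to 4212) and overlapping with E0771-Res1 (1614 to 2885). In C1qa-low cells they were at 8252 to 10553 CPM, against 11986 to 12507 in E0771 and 8901 to 10566 in E0771-Res1. The 5 myeloid genes in C1qa-mid cells were at 11628 to 14777 CPM, below E0771 (16522 to 17310) and E0771-Res1 (16651 to 19139). In C1qa-high and C1qa-low cells their range overlapped with that of the other mice. In C1qa-high cells the summed lymphoid markers were at 62.6 to 64.6 CPM in E0771-Res2 and 41.3 to 55.7 in the other mice, while the macrophage markers (22740 to 24007 against 17359 to 23317 CPM) and dissociation stress genes (4089 to 4790 against 3651 to 4209 CPM) overlapped. In C1qa-low cells the 7 summed macrophage markers were at 3369 to 4150 CPM in E0771-Res2 and 2677 to 3311 in the others, and 6 genes of dissociation stress at 5010 to 7362 against 3684 to 5375 CPM. The monocyte, macrophage and stress genes were not used to set the gates, though the macrophage list holds C1qb and C1qc. The myeloid genes were used to set the gates, and the lymphoid genes to keep lymphocytes out. The part of these gene groups in the Ass1 difference was not tested.

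**Figure D2:**
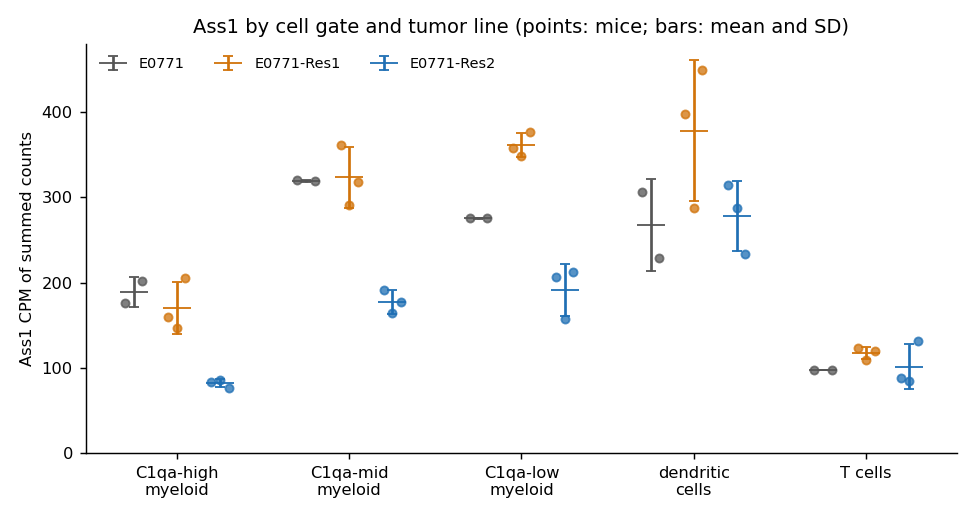
Ass1 CPM in summed counts by cell gate and tumor line; points are mice, horizontal bars the mean and vertical bars the SD. E0771-Res2 mice lie below all other mice in the 3 C1qa gates (76.8 to 86.5 CPM in C1qa-high, 157 to 212 CPM in C1qa-low cells), while E0771-Res2 overlaps with the other lines in dendritic and T cells.

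The difference between gates was then compared between lines by an interaction term. Called genes were 1, 46 and 15 of 8909 for E0771-Res1 against E0771, E0771-Res2 against E0771 and E0771-Res2 against E0771-Res1 (0.0112%, 0.516% and 0.168%), and 0 of 5 members. At an unadjusted p under 0.05 by edgeR, Ass1 passed in the first, Ass1, Arg1 and Odc1 in the second and Arg1 in the third. For Ass1 the gate difference was -0.70 further apart in E0771-Res2 than in E0771 (SE 0.16, edgeR adjusted p = 0.0632).

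Around Ass1, the lists held fewer calls. Against E0771, in C1qa-low cells of E0771-Res2, 1 of 12 arginine uptake, urea cycle and nitric oxide genes was called (Gch1, -0.63, SE 0.12), 1 of 15 ornithine and polyamine genes (Smox, -0.69, SE 0.15) and 0 of 12 itaconate and citrate genes. Of the 20 regulators, 7 were called lower and 1 higher, 40% of the list against 5.49% of all genes, with a median of -0.20 against 0.02. The list was chosen with earlier results of these data known and was not tested as a set. These shares therefore do not set the regulators apart. Csf2rb fell by 0.77 (SE 0.12), Tlr2 by 0.66 (SE 0.15), Irf1 by 0.65 (SE 0.18) and Hif1a by 0.53 (SE 0.11), and Pparg rose by 0.84 (SE 0.17). Against E0771-Res1, Csf2rb fell by 0.66 (SE 0.11) and Tlr2 by 0.94 (SE 0.14), with 3 regulators called lower and 1 higher in all. These comparisons share the E0771-Res2 mice. In C1qa-high cells, Csf2rb and Irf1 were the 2 regulators called against E0771 (-0.82, SE 0.15, and -0.85, SE 0.16), while the other lists held 0 calls. Against E0771-Res1 in C1qa-high cells, 2 genes of the first list were called lower, Gatm (-0.83, SE 0.14) and Prmt1 (-0.40, SE 0.09), 1 ornithine and polyamine gene higher (Sat1, 0.57, SE 0.10), 1 itaconate and citrate gene lower (Idh2, -0.61, SE 0.13), and of the regulators 2 lower (Tlr2 and Csf2rb) and 1 higher (Pparg).

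With the 3 C1qa gates of a mouse summed, all 7 members passed the filter, and Ass1 was at 253 and 261 CPM in E0771, 259, 276 and 310 CPM in E0771-Res1, and 154, 138 and 155 CPM in E0771-Res2. This sum was added after the data had been seen. It was fitted in the main setting only, so its calls were not put through the alternative settings. Against E0771, Ass1 fell by 0.83 in E0771-Res2 (SE 0.10, edgeR adjusted p = 0.00115), where 6.58% of 10589 genes were called. Against E0771-Res1, where 4.94% were called, Ass1 fell by 0.95 (SE 0.09, edgeR adjusted p = 0.000394) and Slc7a2 by 1.22 (SE 0.32, edgeR adjusted p = 0.0483). Slc7a2 stood at 2.91, 2.59 and 3.49 CPM in E0771-Res1 and 0.987, 1.35 and 1.59 CPM in E0771-Res2, from 57 and 29 UMIs. Of the members, 0 were called by edgeR between E0771-Res1 and E0771, where 0.0567% of genes were, and 1, Odc1, had an unadjusted p under 0.05.

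**Figure D3:**
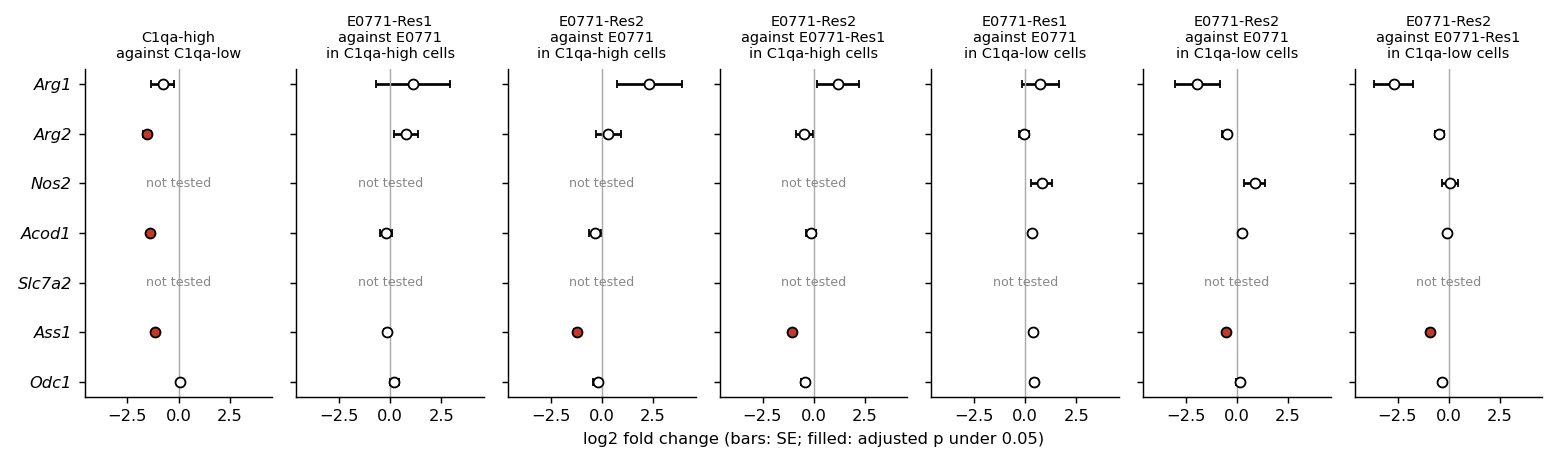
Log2 fold changes of the members in the comparison of gates and the 6 comparisons of lines; bars are standard errors, filled points have an edgeR adjusted p under 0.05, and members with too few counts are marked as not tested. Ass1 is filled in all 4 E0771-Res2 panels, Arg2 and Acod1 in the gate comparison alone, and the Arg1 bars are the widest.

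The promoters of Ass1 and Acod1, the called members with a RefSeq promoter window (GRCm38.p6, 3 of 7 members matched, the third being Odc1), are shown to set their sequences side by side. The 170 bases from 250 to 81 before the RefSeq start are printed 5′ to 3′, at chr2:31470020-31470189 for Ass1 and chr14:103046762-103046931 for Acod1, both on the plus strand and outside the annotated gene, with GCGTG, a core of hypoxia response elements, in capitals on either strand.
Ass1: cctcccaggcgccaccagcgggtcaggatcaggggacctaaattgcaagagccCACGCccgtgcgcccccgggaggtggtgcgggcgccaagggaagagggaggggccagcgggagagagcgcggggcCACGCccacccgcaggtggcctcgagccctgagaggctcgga
Acod1: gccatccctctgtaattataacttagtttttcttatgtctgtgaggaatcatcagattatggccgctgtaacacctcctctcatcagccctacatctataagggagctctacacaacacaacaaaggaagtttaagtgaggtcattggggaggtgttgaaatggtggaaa
The stretches differ in composition, with 73.5% G and C for Ass1 and 42.4% for Acod1. The letters GCGTG occurred 2 times in the Ass1 stretch, 3 times in that of Odc1 and not in that of Acod1, and in 18.8% of 32851 promoter stretches of this length. No match was found in these 3 stretches for TTCNNNGAA (interferon gamma activated site), TTGCNNAA (C/EBP), TGANTCA (AP-1), TGACNNNGC (antioxidant response element), ACGTG or an NF-kB consensus, which 4.97%, 7.04%, 4.68%, 6.19%, 10.5% and 2.89% of all stretches held. In GENCODE's GRCm38 annotation the genes lie at chr2:31470207-31520672 (Ass1), chr14:103046977-103056573 (Acod1), chr12:79130777-79156301 (Arg2), chr10:24915221-24927484 (Arg1), chr11:78920787-78960254 (Nos2), chr8:40862396-40922308 (Slc7a2) and chr12:17544794-17551505 (Odc1), and all are protein coding.

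Arg1 rested on a few cells. Of 7765 myeloid cells 131 had an Arg1 UMI, 85 of them exactly 1, and 20 cells with at least 10 UMIs held 79.4% of the 967 Arg1 UMIs. One C1qa-mid cell of E0771 replicate 3 held 140 of that mouse's 159 UMIs, and one C1qa-low cell of E0771-Res1 replicate 2 held 103 of 228. The 20 Arg1-rich cells came from 6 mice, 2, 2, 7, 3, 4 and 2 per mouse, and fell into all 3 gates, 6 in C1qa-high, 5 in C1qa-mid and 9 in C1qa-low. None of them was among the 5% of cells with the highest doublet scores.

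Arg1 levels in C1qa-low cells therefore ranged from 1.63 to 124 CPM. They were 42.9 and 1.63 CPM in E0771, 11.97, 124 and 5.34 CPM in E0771-Res1, and 1.94, 5.30 and 12.9 CPM in E0771-Res2. In C1qa-high cells E0771-Res2 replicate 2 stood out at 73.8 CPM, the other mice being between 0.732 and 12.4 CPM. The lines overlapped within both of these gates. With all myeloid cells summed, Arg1 was at 26.0 and 50.7 CPM in E0771, above 3.29, 24.5 and 9.82 CPM in E0771-Res2. That comparison was not called (-1.70, SE 0.83, edgeR adjusted p = 0.24). Without the 20 cells, Arg1 in all myeloid cells lay between 1.28 and 6.68 CPM in the 8 mice, against 3.29 to 65.6 CPM with them.

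No comparison as designed called Arg1. Its log2 fold change was -0.78 between the gates (SE 0.58, edgeR adjusted p = 0.267), and without E0771-Res2 replicate 2 it became -1.98 (edgeR adjusted p = 0.000669). Without E0771-Res1 replicate 1 or 3, Arg1 was called lower in E0771-Res2 than in E0771-Res1 in C1qa-low cells (-3.27 and -3.21, edgeR adjusted p = 0.0462 and 0.0492). With no filter on low counts, Arg1 passed between the gates and in 5 of the 6 line comparisons. That fit gave Arg1 a standard error of 0.14 between the gates, against 0.58 with the filter, so it may understate the spread between mice. Without the cell of most Arg1 UMIs in each mouse and gate, the same comparison of E0771-Res2 with E0771-Res1 gave -4.47 (edgeR adjusted p = 0.0405), against -2.69 (SE 0.96, adjusted p = 0.132) with it.

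Nos2 had a flatter distribution. Its 187 UMIs lay in 110 cells, with at most 9 in a cell, and its level in all myeloid cells was 2.74 and 1.59 CPM in E0771, 4.37, 2.01 and 4.58 CPM in E0771-Res1, and 3.18, 2.87 and 5.84 CPM in E0771-Res2. E0771-Res1 overlapped with both other lines. The 3 E0771-Res2 mice lay above both E0771 mice, by as little as 2.87 against 2.74 CPM, from 90 and 21 UMIs. With all myeloid cells summed this comparison was not called (0.74, SE 0.455, edgeR adjusted p = 0.362). In C1qa-low cells, the gate where Nos2 could be tested, E0771-Res2 against E0771 gave 0.87 (SE 0.51, edgeR adjusted p = 0.373) and E0771-Res1 against E0771 0.80 (SE 0.53, edgeR adjusted p = 0.694).

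Neutrophils can also carry arginase. Of 8 neutrophil markers, Ngp was at 0 in C1qa-high and C1qa-low cells of every mouse, and Ly6g in C1qa-high cells of every mouse. S100a9, Csf3r and Mmp8 were above 0 in C1qa-high cells of every mouse. The summed list was 68.8 to 119 CPM in C1qa-high and 116 to 390 CPM in C1qa-low cells. The highest C1qa-low sums were those of E0771-Res2 replicates 2 and 3. In C1qa-mid cells the sum was 106 to 497 CPM, highest in E0771-Res1 replicate 2, with Ngp at 0 in every mouse. Ly6g was above 0 there in E0771-Res2 replicates 1 and 3. The part of neutrophils in the Arg1 levels was not tested.

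**Figure D4:**
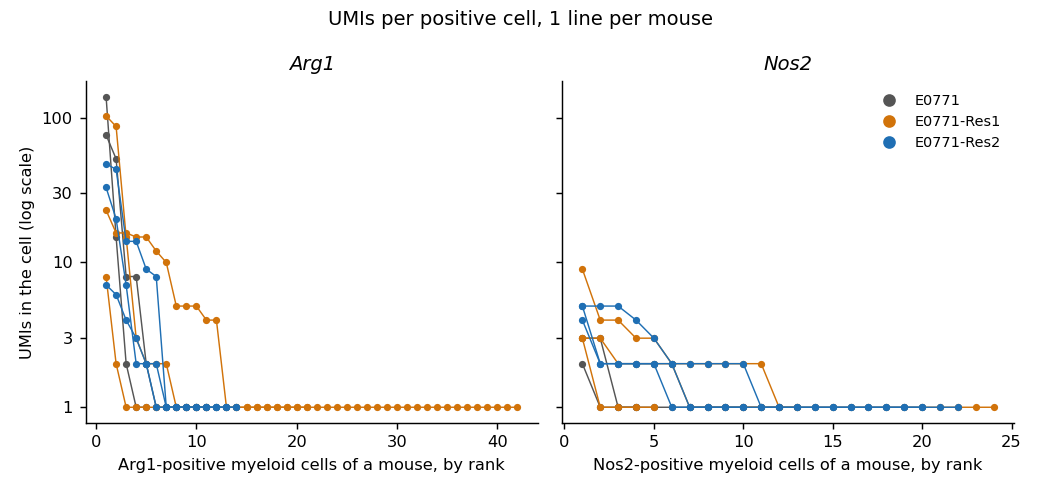
UMIs of Arg1 (left) and Nos2 (right) in each positive myeloid cell, ranked within a mouse, on a log axis; each line is a mouse, colored by tumor line. Arg1 falls from as many as 140 UMIs to 1 within a few cells, while no cell holds more than 9 Nos2 UMIs.

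Arg1 and Nos2 were found together in 1 of 7765 myeloid cells, in E0771-Res1 replicate 1, where 1.87 such cells were expected had the genes been placed independently within each mouse. After thinning to 3500 UMIs, Arg1 was seen in 66 cells, Nos2 in 66 and both in 1, against 0.602 expected. The mean difference per mouse between observed and expected cells was 0.05 (SD 0.298, n = 8, exact two-sided sign-flip permutation test, p = 1). Of the 20 Arg1-rich cells, 0 had a Nos2 UMI, against 1.42% of the other myeloid cells. Neither sharing nor exclusion was detectable at this depth. The log2 odds ratio with 0.5 added to each count was 3.09 (SD 0.754, n = 8, exact permutation test, p = 0.00781, adjusted over 21 pairs 0.0205), but 7 of 8 mice had no cell with both, so the added 0.5 sets this value.

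Larger counts allowed a comparison for other pairs. Acod1 and Ass1 were found together in 518 thinned cells, where 366 were expected, and exceeded the expected number in 8 of 8 mice, with a mean log2 odds ratio of 1.08 (SD 0.169, exact permutation test, p = 0.00781, the smallest it can give). The value adjusted over 21 pairs, 0.0205 by the exact permutation test, rests on 8 pairs tied at that smallest p, of which 5 had no mouse with over 1 expected cell. The test on observed minus expected cells gave p = 0.00781, or 0.164 adjusted over 21 pairs (exact permutation test), which did not pass. That p is the smallest possible with 8 mice and no other pair reached it, so the missed threshold on this measure says little. Both genes were higher in C1qa-low cells, so the pair was also compared within gates, a step added after the data had been seen. There, 318 cells were observed and 248 expected in C1qa-low cells (log2 odds ratio 0.92, SD 0.350, exact permutation test, p = 0.00781), and 85 against 48.3 in C1qa-high cells (1.42, SD 0.879, exact permutation test, p = 0.0156). In C1qa-mid cells the numbers were 115 and 93.5 (0.63, SD 0.732, exact permutation test, p = 0.0547). The p values within gates were not adjusted for the number of comparisons, so none is read as a call.

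Nos2 and Acod1 shared 24 cells against 9.46 expected, above the expected number in 6 of 8 mice. The other 2 mice had no shared cell, and the added 0.5 alone made their odds ratios positive, so the mean log2 odds ratio of 1.76 (SD 1.15) is given with no test. On observed minus expected cells the exact permutation test gave p = 0.0312, or 0.29 adjusted over 21 pairs. Arg2 and Acod1 shared 64 cells against 43.2 expected (0.63, SD 0.879, exact permutation test, adjusted p = 0.139). Acod1 and Odc1 shared 201 against 211.5 expected, and Ass1 and Odc1 516 against 548, with odds ratios whose adjusted exact permutation p were 0.766 and 0.195. Arg1 and Acod1 shared 13 cells where 9.29 were expected (0.79, SD 0.958, exact permutation test, adjusted p = 0.0895). Only 4 of 8 mice had over 1 expected cell, so the added 0.5 weighs on this value too. Without thinning, Arg1 and Acod1 shared 28 cells against 28.9 expected.

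**Figure D5:**
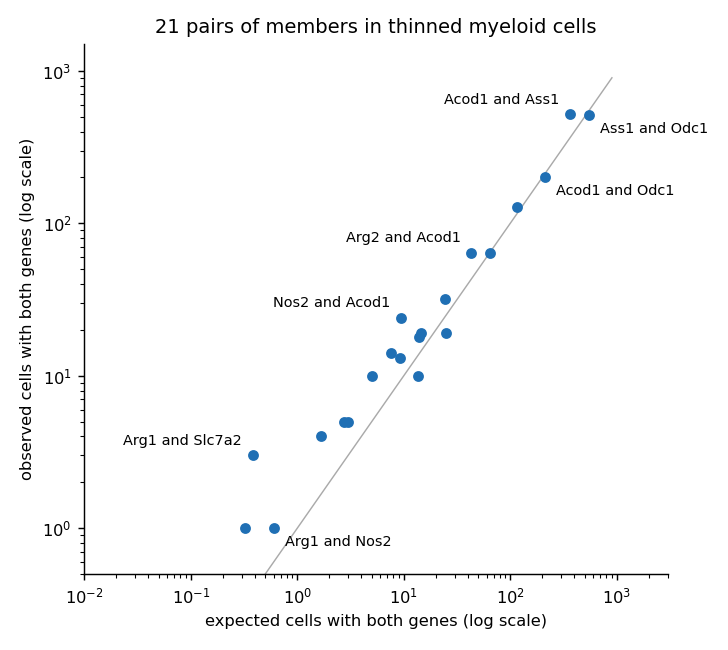
Observed against expected numbers of thinned myeloid cells with a UMI of both genes, summed over 8 mice, for the 21 pairs of members, on log axes; the line marks equality. Acod1 and Ass1 (518 observed, 366 expected) and Nos2 and Acod1 (24 and 9.46) lie above the line, and Ass1 and Odc1 (516 and 548) just below it.

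Over the marker gates, with the unassigned cells left out, the members had different homes. Odc1 was highest in T cells, at 708 CPM (SD 165), where every mouse (522 to 1083 CPM) exceeded every myeloid value (64.8 to 178 CPM), and 76.0% of T cells had an Odc1 UMI. T cells also held 736 to 2214 CPM of 6 proliferation genes, against 50.1 to 432 CPM in the C1qa-high and C1qa-low gates, whose part in this difference was not tested. Ass1 was highest in dendritic cells, at 313 CPM (SD 75.9), which overlapped with C1qa-low cells at 276 CPM (SD 80.4). Acod1, Arg2 and Nos2 had their highest means in C1qa-low cells and Arg1 in C1qa-mid cells, the last through the cell of 140 UMIs. Each overlapped with the next gate. In the unassigned cells Nos2 averaged 5.04 CPM (SD 5.03), against 4.38 CPM (SD 2.09) in C1qa-low cells.

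The genes whose levels ran most like a member's were taken over 24 summed profiles (8 mice, 3 C1qa gates), which share mice and depth, and are a description only. For Acod1 they were Clec4e (Pearson r = 0.94), Traf1 (0.93), Ifi205 (0.93), Junb (0.93) and F10 (0.93). Clec4e encodes the pattern recognition receptor Mincle, and Traf1 a signaling adaptor of TNF receptors. For Arg1 the values were lower, led by the scavenger receptor Msr1 (0.70), Tbl1xr1 (0.69) and Ndrg1 (0.67), followed by Psd4 (0.67) and Msl1 (0.65). For Nos2, whose counts were few, Jund (0.76), Nktr (0.76), Taf7 (0.75), Paxbp1 (0.74) and Tra2a (0.73) came first.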

How the data were processed

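CD45+ cells of 8 mice were profiled with 10x Genomics 3′ chemistry and CellPlex tags. The authors deposited raw UMI counts per gene and cell, unnormalized, from Cell Ranger 6.1.2 (version per the file headers) on mm10 (per the labels). Seurat, which the authors name, was not used here. The 9 tag features were not used. Members and gene lists were chosen with earlier results of these data known.

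Cells were kept at 500 to 6000 genes and under 10% mitochondrial counts. Mitochondrial, ribosomal and Gm-prefixed genes (19.3% to 21.2% of UMIs), which the authors also left out, were excluded. Named genes are the 7 members, genes of the pathway and regulator lists that passed a test, and, for Arg1, Nos2 and Acod1, the 5 genes of highest correlation at an average log2 CPM of at least 5. Gates used raw UMIs of marker genes, and 1823 kept cells stayed unassigned. Scrublet's automatic call marked 31 cells (0.271%), too few to rely on, so doublets stayed in and the 5% of highest scores were left out as an alternative. Counts were summed per mouse and gate and tested with edgeR 4.0.16 (filterByExpr, TMM, quasi-likelihood, Benjamini-Hochberg over all genes tested), with the mouse as a block between gates and all 3 lines in 1 fit between lines. DESeq2 1.42.0 was an alternative. Samples of a group are separate mice and differed by 2.66 to 12.4 times the sampling noise (chi-square per degree of freedom), so no library was counted once for another. The edgeR step was tested on simulated data. Shares and pairs were tested by exact sign flips over mice.

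Replicate numbers of different lines were checked for pairing. Deviations of same-numbered mice from their group means correlated at -0.05 to 0.07, and those of mice with different numbers at -0.06 to 0.06. The medians for same and different numbers were 0.01 and -0.01 in C1qa-high cells, and 0.04 and -0.02 in C1qa-low cells. The replicate number as a block gave more calls in each comparison of lines. No clear pairing by number was seen, though with so few mice per group a weak one could be missed. Depth limits Nos2, Slc7a2 and Arg1 most.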

Additional observations from a re-analysis of the deposited data

How the results depend on the processing

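The count of genes called between the C1qa gates (4961) stayed between 4061 and 5530 under every alternative run, and the calls of Ass1, Arg2 and Acod1 there held. Ass1 kept its direction in all E0771-Res2 comparisons, and its calls held except against E0771 in C1qa-low cells without either E0771 mouse. Counts between lines moved more. For E0771-Res1 against E0771 in C1qa-high cells (24) they were 55 with all deposited cells, 76 with the C1qa gate set per 10000 UMIs, 96 with DESeq2, 369 with no filter on low counts, 61 without the highest doublet scores and 5 to 287 with a mouse left out, the highest without E0771-Res1 replicate 3. In C1qa-low cells (8) they were 3 with the gate per 10000 UMIs, 3 with dendritic cells kept, 47 with DESeq2, 189 with no filter, 4 without the highest doublet scores, 4 without the cell of most Arg1 UMIs and 0 to 38 with a mouse left out. For E0771-Res2 against E0771, no filter gave 541 (C1qa-high, 183) and 850 (C1qa-low, 522), the gate per 10000 UMIs 223 in C1qa-low cells, and a mouse left out 31 to 359 and 44 to 638, the lowest without E0771 replicate 3 and replicate 1. For E0771-Res2 against E0771-Res1, DESeq2 gave 191 (C1qa-high, 294) and 294 (C1qa-low, 450), no filter 624 and 800, the gate per 10000 UMIs 221 in C1qa-low cells, and a mouse left out 102 to 326 and 169 to 522. The cause of these shifts was not tested.

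With the replicate number as a block, E0771-Res1 against E0771 gave 59 and 36 calls in C1qa-high and C1qa-low cells, E0771-Res2 against E0771 191 and 591, and E0771-Res2 against E0771-Res1 318 and 516. The block changed no call of a member. Under it the uncalled Arg1 value of E0771-Res1 against E0771 in C1qa-low cells became -0.67.

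Other turns of direction concerned uncalled values. With a mouse left out, the log2 fold changes of E0771-Res1 against E0771 ran from -0.60 to 0.0795 for Acod1 and -0.0751 to 0.55 for Odc1 in C1qa-high cells, and from -1.44 to 4.66 for Arg1 and -0.26 to 0.21 for Arg2 in C1qa-low cells. Those of E0771-Res2 against E0771 ran from -1.35 to 4.07 for Arg1, -0.12 to 0.67 for Arg2 and -0.41 to 0.14 for Odc1 in C1qa-high cells, and from -2.87 to 1.957 for Arg1 and -0.0665 to 0.44 for Odc1 in C1qa-low cells. Those of E0771-Res2 against E0771-Res1 ran from -2.45 to 1.92 for Arg1, -0.90 to 0.0142 for Arg2 and -0.42 to 0.27 for Acod1 in C1qa-high cells, and from -0.36 to 0.32 for Nos2 and -0.12 to 0.0017 for Acod1 in C1qa-low cells. With no filter, Ass1 of E0771-Res1 against E0771 in C1qa-low cells (0.39) and Odc1 of E0771-Res2 against E0771-Res1 in C1qa-high cells (-0.41) also passed, under the limit of that fit given with Nos2. Arg2 of E0771-Res2 against E0771-Res1 in C1qa-low cells was called without E0771-Res1 replicate 1 (-0.72).

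The difference in thinned share between gates turned for Arg1 with at least 2 UMIs required (-0.0556 points) and over mice left out (-0.204 to 0.301), for Nos2 with at least 2 UMIs (0.0185), and for Slc7a2 without thinning (0.542), thinned to 1750 UMIs (0.478), and without the highest doublet scores (0.155). With at least 2 UMIs required, Arg2 (adjusted exact p 0.0547) and Odc1 (0.164) no longer passed, nor did Odc1 with the gate per 10000 UMIs (0.0547). With 7 mice the smallest exact p is 0.0156, so calls lost there say little. The log2 odds ratio of Arg1 and Nos2 moved with the depth, to 1.48 without thinning, 4.35 at 1750 UMIs and 5.85 with at least 2 UMIs, and was 2.93 to 3.25 with a mouse left out. The difference between observed and expected cells was 0.0498 per mouse and did not pass.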
